A study of Sus scrofa with 36 samples.

Results

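The genes described here copy DNA or make its building blocks. They were found on the array by their gene name, or by a description that carries the name in round brackets, in a list of 47 genes. A probe was found for 32 of the 47, 52 probes in all, of 60305 probes on the array. Values were deposited for 49 of the 52, which stand for 30 genes, and for 46097 probes of the array as a whole. The 2 genes with a probe but no deposited value were POLA1 and POLE. The 15 without a probe under these names were CDT1, FEN1, GINS1, GINS3, GINS4, MCM4, MCM5, MCM7, MCM10, ORC1, ORC6, POLE2, RPA3, TK1 and TYMS.

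Total RNA came from the thyroid glands of 36 castrated male growing pigs, hybridized 1 pig per array to 1-colour Agilent porcine arrays. The pigs were Creole (CR), Large White (LW) or F1, their cross, and each breed had 6 pigs at 24 °C and 6 at a labelled 30 °C. The protocol text gives the hot room as 32 °C and the stay as 5 days, and the labels give no age. The 24 °C pigs were slaughtered before the heat and the others after it, so temperature cannot be told apart from the time of slaughter. Pen, slaughter day, sire and dam were not used, littermates counted as independent pigs, and breed cannot be told apart from the few families behind each breed.

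A cell that is going to divide first loads the MCM helicase onto its origins of replication, with CDC6 as a loading factor and GMNN as the inhibitor of that step. CDC45 and the GINS complex switch the helicase on, primase and polymerase alpha lay down primers, and polymerases delta and epsilon extend them. The ring-shaped clamp PCNA, placed by the RFC loader, holds the polymerases on the DNA. Ribonucleotide reductase, made of RRM1 and RRM2, supplies deoxynucleotides, and RRM2 is the subunit whose amount follows the cell cycle. Follicular cells of the adult thyroid divide rarely, but these pigs were still growing.

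The thyroid origin of the RNA was visible in the follicular cell markers, among them TG, the hormone precursor, at a mean log2 intensity of 18.8 at 24 °C. Between 72.8% and 80.3% of the spots of an array were well above background, and no spot was saturated. Placed on the 500 probes with the largest difference between LW and CR, from -1 at the CR mean to 1 at the LW mean, CR pigs lay from -1.16 to -0.44, F1 pigs from -0.48 to 0.43 and LW pigs from 0.63 to 1.11. The CR and F1 ranges met in replicate 3 of CR at 30 °C, at -0.44, and replicate 4 of F1 at 24 °C, at -0.48. Results without both pigs are given where they differ.

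Each probe is a stretch of 60 bases. Those below, copied from the scanner files, are the probes behind the 9 genes that were lower after heat, with the extra probes of PCLAF, CDC45 and CDC6 that show whether separate parts of a transcript gave one answer. Letters are lower case throughout, as no base is singled out, and some probes are shown by their first 30 bases. CDC45 is represented in the results by the brightest of its 5 probes, which is not printed.
RRM2, first 30 bases: accatgaggccgaagggagacagactcact
PCLAF, named probe, first 30 bases: gcttagatctttgtactattgccattttca
PCLAF, dimmest of 3 probes found by accession: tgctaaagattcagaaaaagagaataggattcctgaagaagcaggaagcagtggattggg
UHRF1, first 30 bases: ctgaccttgaaattgaattttcaactcgcc
BRCA1, first 30 bases: tgggagctcttccatccttccacagccccg
PCNA: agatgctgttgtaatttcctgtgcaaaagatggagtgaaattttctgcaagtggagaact
CHEK1: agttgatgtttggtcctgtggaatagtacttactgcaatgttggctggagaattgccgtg
POLD1: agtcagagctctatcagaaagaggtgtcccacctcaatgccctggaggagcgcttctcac
MCM3, first 30 bases: gtcaccatacgtacaaaagactcatacgaa
CDC45, brighter of the pair outside the overlap: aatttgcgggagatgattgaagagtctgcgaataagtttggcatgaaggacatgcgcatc
CDC45, dimmer of that pair: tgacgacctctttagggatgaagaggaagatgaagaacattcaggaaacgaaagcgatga
CDC6, named probe: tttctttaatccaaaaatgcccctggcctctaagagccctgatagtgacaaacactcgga
CDC6, probe found by description, first 30 bases: tgtgggggtggtaaggagagtgggactctt

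The first comparison asked which of these genes differed between pigs slaughtered after and before the heat, over the 3 breeds. Of the 30 genes, each represented by its brightest probe, 9 were lower at 30 °C and none was higher (limma, adjusted p under 0.05 over all 46097 probes). That is 30.0% of the members, where 1.18% of all tested probes were called and 0.874% were called lower. The 9 were RRM2, PCLAF, UHRF1, BRCA1, PCNA, CHEK1, POLD1, CDC45 and MCM3. Of the 30 changes 25 were below 0 and their median was -0.09 on the log2 scale, where 44.3% of all tested probes were below 0 and the median was 0.01. Each of the 6 roles held 1 or 2 of the 9.

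**Figure D1:**
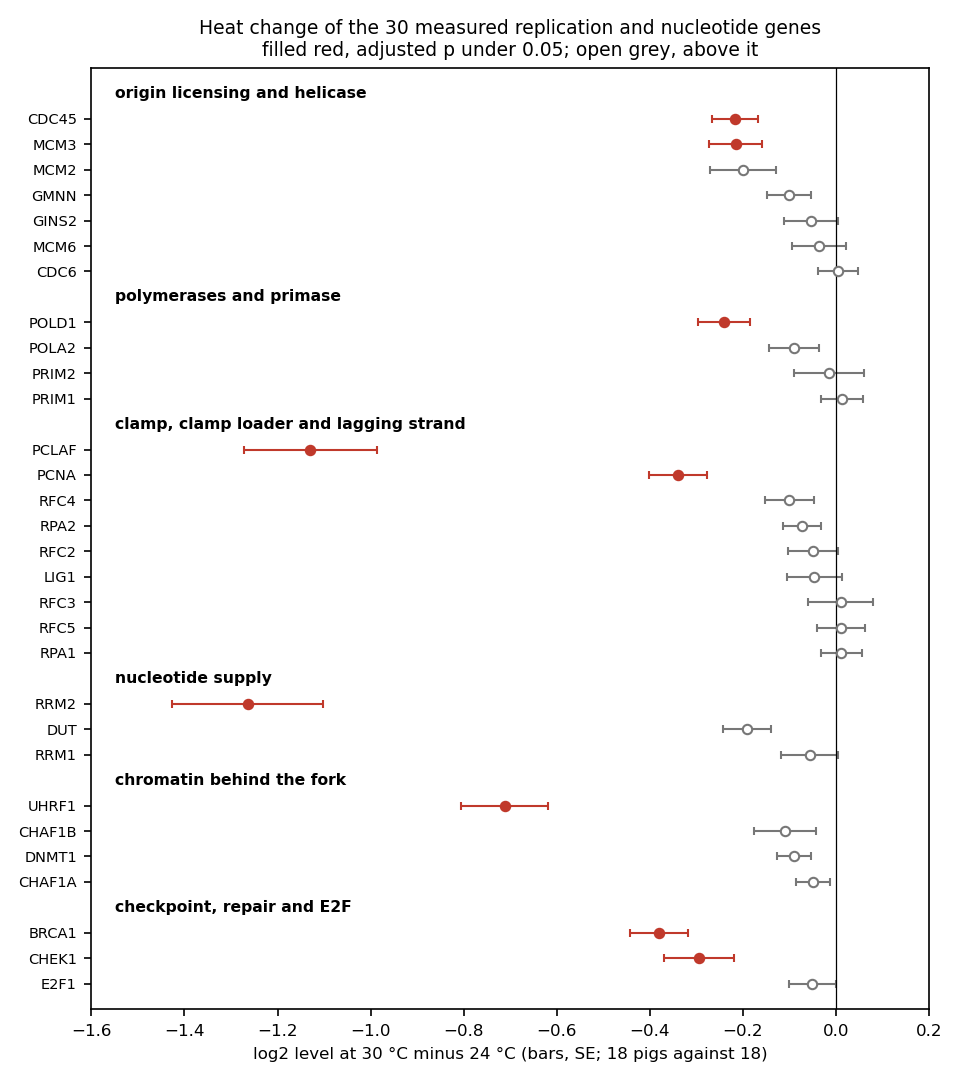
Heat change of the 30 measured genes, ordered by role. The x axis is the log2 level at 30 °C minus that at 24 °C from the model with breed and temperature, bars are SE, 18 pigs stand against 18, filled red points passed an adjusted p of 0.05 and open grey points did not. RRM2, PCLAF and UHRF1 lie at -1.26, -1.13 and -0.71, and the 21 open points lie between -0.20 and 0.01.

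Among the genes of nucleotide supply, RRM2 showed the largest change of all 30. In CR pigs RRM2 ran from 9.21 over a median of 9.42 to 9.82 (log2 intensity) at 24 °C and from 6.88 over 8.05 to 8.61 at 30 °C. In F1 pigs it ran from 8.26 over 8.82 to 10.00 and from 7.36 over 7.69 to 8.0. In LW pigs it ran from 7.59 over 8.69 to 9.47 and from 7.4 over 7.82 to 8.19. The hot pigs were thus all below the cool ones in CR and in F1, while the LW groups overlapped through a low cool pig. Overlap of the groups is described here and below for genes already called for heat, and it was not counted over all probes. RRM2 fell by 1.26 (SE 0.16, adjusted p 8.55e-06), to 41.6% of its signal at 24 °C, and was below the cool mean of its own breed in 18 of 18 hot pigs.

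The other 2 measured genes of nucleotide supply did not pass the test. DUT, which removes dUTP so that uracil stays out of DNA, was the member nearest the threshold, at -0.19 (SE 0.05, adjusted p 0.0566). Its second probe shares 57 of 60 bases with the first and gave -0.18 (adjusted p 0.0785). RRM1, the large subunit of ribonucleotide reductase, was at -0.06 (SE 0.06), but its probe exceeded background clearly on only 30 arrays and had a mean of 5.67 at 24 °C, close to the floor of the scale. The strand of this probe against the transcript was also not checked. Whether RRM1 moved with RRM2 could therefore not be seen with this probe.

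PCLAF, the PCNA-associated factor known earlier as KIAA0101, led the genes of the clamp and its loader. The named PCLAF probe ran from 7.76 over 8.24 to 8.57 in CR at 24 °C and from 5.72 over 6.95 to 7.03 at 30 °C. The F1 values were 7.07, 7.51 and 8.27 against 6.14, 6.59 and 6.79, and those of LW 6.49, 7.26 and 8.09 against 6.0, 6.60 and 6.87. As for RRM2, the temperatures did not overlap in CR and F1 and overlapped in LW. PCLAF fell by 1.13 (SE 0.14, adjusted p 8.43e-06) and was below the cool mean of its breed in 18 of 18 hot pigs.

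A further 3 probes, found only by their accession and outside the rule, also belong to PCLAF. They changed by -1.47, -1.42 and -0.76, each with an adjusted p of 1.03e-05 or less. The first pair shares 57 bases, and the dimmest, with a mean of 6.43 at 24 °C, showed the smallest change. A probe described only as thymidine kinase, without a gene symbol, changed by -1.33 (SE 0.18, adjusted p 1.53e-05), and the files do not say whether it is TK1, the S phase enzyme on the list. The other deposited probes outside the rule did not pass, with MCM5 at -0.22 (adjusted p 0.189), MCM6 at -0.04 (0.944) and both probes of ORC6 at 0.06 (0.795) and 0.01 (0.993).

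PCNA itself went from a mean of 8.29 ± 0.13 (SD, n = 18) at 24 °C to 7.95 ± 0.22 (n = 18), a change of -0.34 (SE 0.06, adjusted p 0.00101). The lowest, median and highest of the 6 pigs were 8.10, 8.31 and 8.43 at 24 °C against 7.63, 7.94 and 8.27 at 30 °C in CR. They were 8.14, 8.25 and 8.56 against 7.39, 8.02 and 8.13 in F1, and 8.08, 8.27 and 8.45 against 7.67, 8.01 and 8.20 in LW. PCNA was separated by temperature in F1, if narrowly, and all 18 hot pigs lay below the cool mean of their breed. In contrast with the clamp, no measured subunit of its loader passed the test. RFC2, RFC3, RFC4 and RFC5 changed by -0.05, 0.01, -0.10 and 0.01, and the single-strand binding proteins RPA1 and RPA2 by 0.01 and -0.07. LIG1, which seals the lagging strand, changed by -0.05 from a probe with a mean of 5.86 at 24 °C.

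Among the genes that act on chromatin behind the fork, UHRF1 changed most. UHRF1 reads hemimethylated DNA and brings in DNMT1, the maintenance methyltransferase. It ran from 6.45 over 6.74 to 7.29 in CR at 24 °C and from 5.34 over 5.93 to 5.99 at 30 °C. The F1 values were 6.06, 6.43 and 6.91 against 5.41, 5.69 and 6.08, and the LW values 5.89, 6.08 and 6.52 against 5.44, 5.74 and 6.09. The temperatures were apart in CR and overlapped in F1 and LW. UHRF1 fell by 0.71 (SE 0.09, adjusted p 8.82e-06), with 18 of 18 hot pigs below the cool mean of their breed. Its spot was well above background on 34 of 36 arrays, and the size of the change depended on how background was handled, from -0.46 after normexp to -1.28 on the background-subtracted signal.

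DNMT1 was measured by 7 probes that do not overlap, and none of them passed the test. Their changes lay between -0.09 and -0.07, with the representative probe at -0.09 (SE 0.04, adjusted p 0.376). The 2 measured subunits of the chromatin assembly factor, which puts histones onto new DNA, were at -0.05 for CHAF1A and -0.11 for CHAF1B. Both lay near the floor of the scale, and CHAF1B was well above background on 30 arrays. The strand of these probes was not checked either, so a lack of change in CHAF1A or CHAF1B was not shown.

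**Figure D2:**
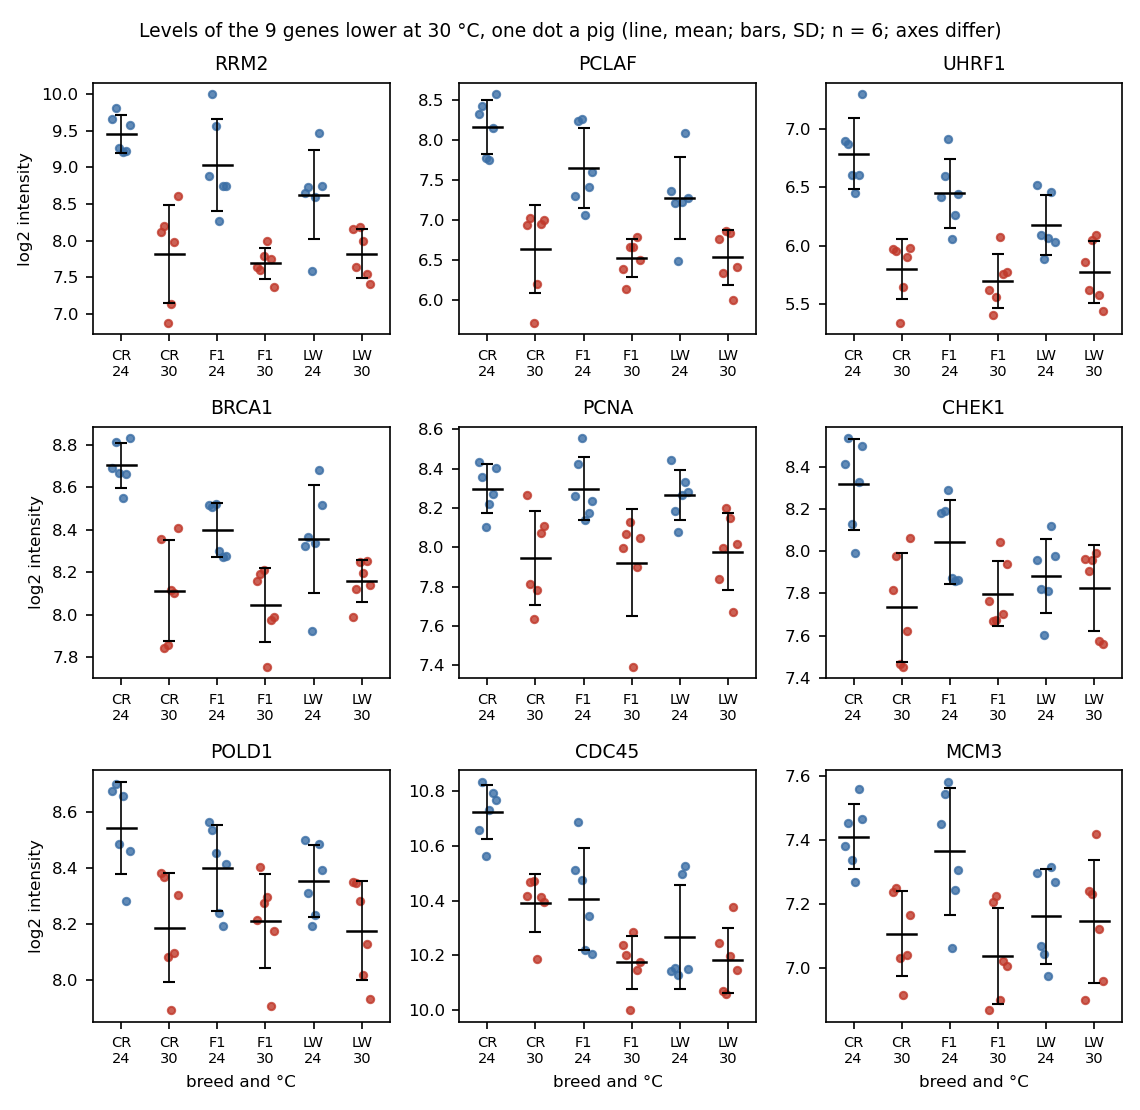
Log2 intensity of the 9 genes lower at 30 °C, one dot per pig, by breed and labelled temperature (blue 24 °C, red 30 °C). Lines are means and bars SD of 6 pigs, and the y axes differ between genes. RRM2, PCLAF and BRCA1 separate the temperatures in CR and F1, whereas the LW dots overlap in all 9 panels. The 9 genes were chosen by the heat test on these same pigs.

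Of the checkpoint and repair genes, BRCA1 and CHEK1 were lower at 30 °C. BRCA1, which repairs broken forks and double-strand breaks, ran from 8.55 over 8.68 to 8.83 in CR at 24 °C and from 7.84 over 8.11 to 8.41 at 30 °C. It ran from 8.27 over 8.40 to 8.52 against 7.76, 8.07 and 8.21 in F1, and from 7.92 over 8.35 to 8.68 against 7.99, 8.17 and 8.25 in LW. CR and F1 were again split by temperature and LW was not. BRCA1 fell by 0.38 (SE 0.06, adjusted p 0.000223), with 18 of 18 hot pigs below the cool mean of their breed.

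CHEK1, the kinase that answers stalled forks, fell by 0.29 (SE 0.07, adjusted p 0.0365), and 14 of 18 hot pigs were below the cool mean of their breed. Its values in CR were 7.99, 8.37 and 8.53 at 24 °C against 7.45, 7.72 and 8.06 at 30 °C. In F1 they were 7.86, 8.03 and 8.29 against 7.67, 7.73 and 8.04, and in LW 7.6, 7.89 and 8.12 against 7.56, 7.93 and 7.99. The groups overlapped in every breed, and in LW the hot median was the higher one. Without both pigs that lie between the breeds the adjusted p was 0.0544, and leaving out any of 17 single pigs also took CHEK1 past 0.05. E2F1, a transcription factor of the G1 to S transition, changed by -0.05 (adjusted p 0.855).

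Among the origin and helicase genes, CDC45 and MCM3 were lower at 30 °C. CDC45 was at 10.56, 10.75 and 10.83 (lowest, median and highest) in CR at 24 °C and at 10.19, 10.41 and 10.47 at 30 °C. The F1 values were 10.20, 10.41 and 10.69 against 10.00, 10.19 and 10.29, and the LW values 10.13, 10.15 and 10.53 against 10.06, 10.17 and 10.38. The CR groups did not overlap, the others did, and the LW medians were nearly level. CDC45 fell by 0.22 (SE 0.05, adjusted p 0.0126), with 17 of 18 hot pigs below the cool mean of their breed.

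All 5 probes of CDC45 passed the test, with changes between -0.26 and -0.19. A pair of them carries the same 60 bases at different places on the array and so shows the error of the measurement. Their difference on 1 array had an SD of 0.07 over the 36 arrays, and their heat changes were -0.26 (adjusted p 0.000422) and -0.21 (adjusted p 0.0347). The representative probe shares 50 bases with both, and the 2 printed probes share none with the others, so the change of CDC45 was seen in 3 separate stretches of its transcript. The dimmer printed probe lay near the floor of the scale, with a mean of 5.90 at 24 °C. It was well above background on 35 arrays and had a limma adjusted p of 0.0388.

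MCM3, a subunit of the helicase ring, was the call nearest the threshold. It ran from 7.27 over 7.42 to 7.56 in CR at 24 °C and from 6.92 over 7.10 to 7.25 at 30 °C. The F1 values were 7.06, 7.38 and 7.58 against 6.87, 7.01 and 7.22, and the LW values 6.97, 7.17 and 7.31 against 6.90, 7.18 and 7.42. MCM3 was apart in CR, and in LW the medians were level. It fell by 0.22 (SE 0.06, adjusted p 0.0473) with 15 of 18 hot pigs below the cool mean of their breed, and the call was lost when any of 25 single pigs was left out.

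The rest of the origin genes did not pass. MCM2 was at -0.20 (SE 0.07, adjusted p 0.247), GMNN at -0.10, GINS2 at -0.05 and MCM6 at -0.04. The 2 probes of CDC6, which share no stretch of sequence, gave different values. Whether each lies on the strand of the transcript was not checked, so the named probe may not report CDC6 mRNA. The named and brighter probe was at 0.00 (SE 0.04, adjusted p 0.993), and the dimmer probe found by description was at -0.31 (SE 0.07, adjusted p 0.0142), with 16 of 18 hot pigs below the cool mean of their breed. With any probe of a gene allowed, 10 genes were called in place of 9, and 14 of the 49 member probes, all of them lower.

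POLD1, the catalytic subunit of polymerase delta, was the only 1 of the 4 measured polymerase and primase genes to pass. It was at 8.28, 8.57 and 8.70 in CR at 24 °C against 7.89, 8.20 and 8.38 at 30 °C. The F1 values were 8.19, 8.43 and 8.56 against 7.91, 8.24 and 8.40, and the LW values 8.19, 8.35 and 8.50 against 7.93, 8.21 and 8.35. The medians stood lower at 30 °C in each breed, with overlap in all 3. POLD1 fell by 0.24 (SE 0.06, adjusted p 0.0147), with 17 of 18 hot pigs below the cool mean of their breed. POLA2, which holds polymerase alpha to primase, was at -0.09, and the primase subunits PRIM1 and PRIM2 at 0.01 and -0.01.

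**Figure D3:**
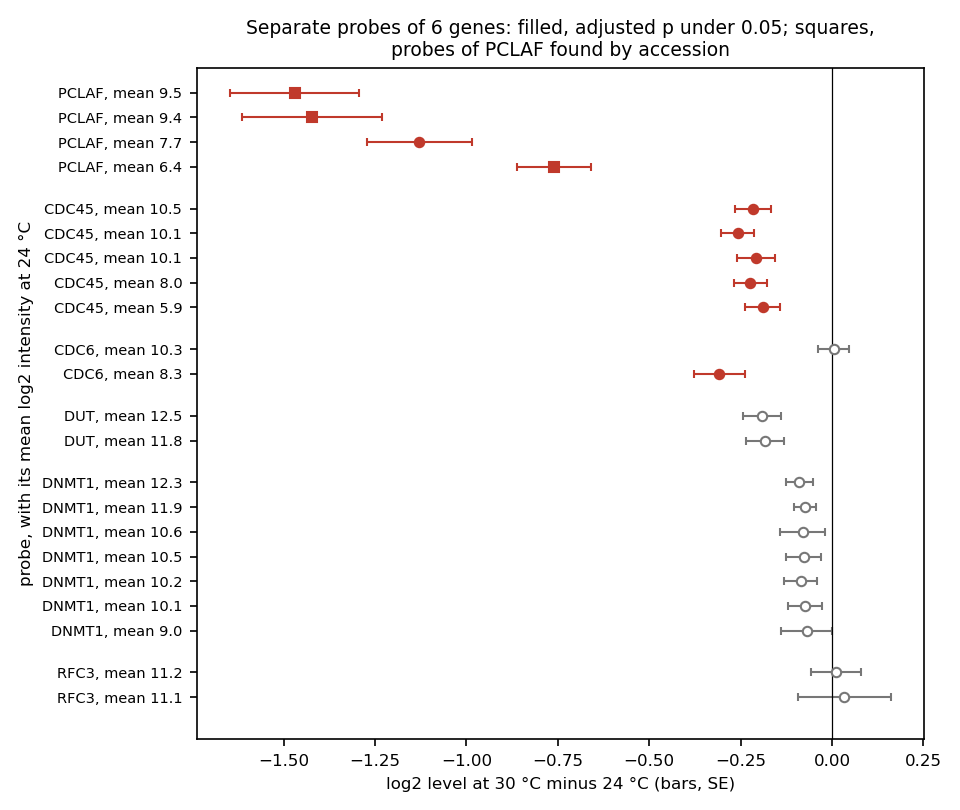
Heat change of every deposited probe of PCLAF, CDC45, CDC6, DUT, DNMT1 and RFC3. The x axis is log2 at 30 °C minus 24 °C with SE bars, each label gives the mean log2 intensity of the probe at 24 °C, filled points passed an adjusted p of 0.05, and squares are the 3 PCLAF probes found by accession. The 5 CDC45 probes lie between -0.26 and -0.19, the 7 DNMT1 probes between -0.09 and -0.07, and the CDC6 probes lie apart at 0.00 and -0.31.

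The second comparison asked how the heat change stood within each breed. In CR pigs 5 of the 30 genes were called, all lower, against 0.375% of all probes. They were RRM2 at -1.64, PCLAF at -1.52, UHRF1 at -0.98, BRCA1 at -0.59 and CHEK1 at -0.58. In F1 pigs RRM2 at -1.35, PCLAF at -1.12 and UHRF1 at -0.75 were called, 3 of the 30 against 0.377% of all probes. In LW pigs limma called none of the 30 and 0% of all probes, and 4 members had an unadjusted p under 0.05, where 1844 of the 46097 probes did. The LW changes of RRM2, PCLAF and UHRF1 were -0.81, -0.74 and -0.40.

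The F1 calls were the least firm. They were lost when the position of the array on its slide entered the model, and without replicate 3 of F1 at 24 °C, where limma called 0 members, or replicate 2, where it called 1. With position, 18 of all 46097 probes were called within F1, against 174 without it. Within CR the counts were 168 and 173. Without both pigs that lie between the breeds 4 members were called in F1 and 5 in CR.

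Of the 9 genes called over the breeds, 9 had their smallest change in LW and 7 their largest in CR. The median change of the 9 was -0.58 in CR, -0.35 in F1 and -0.20 in LW. The test of an interaction between breed and temperature, which asks whether those changes differ, called 0 of the 30 members and 0% of all probes in limma. The smallest adjusted p of a member was 0.9999, and 5 members had an unadjusted p under 0.05, the lowest being CHEK1 at 0.00996. The breeds were therefore not shown to differ in the change of any member.

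**Figure D4:**
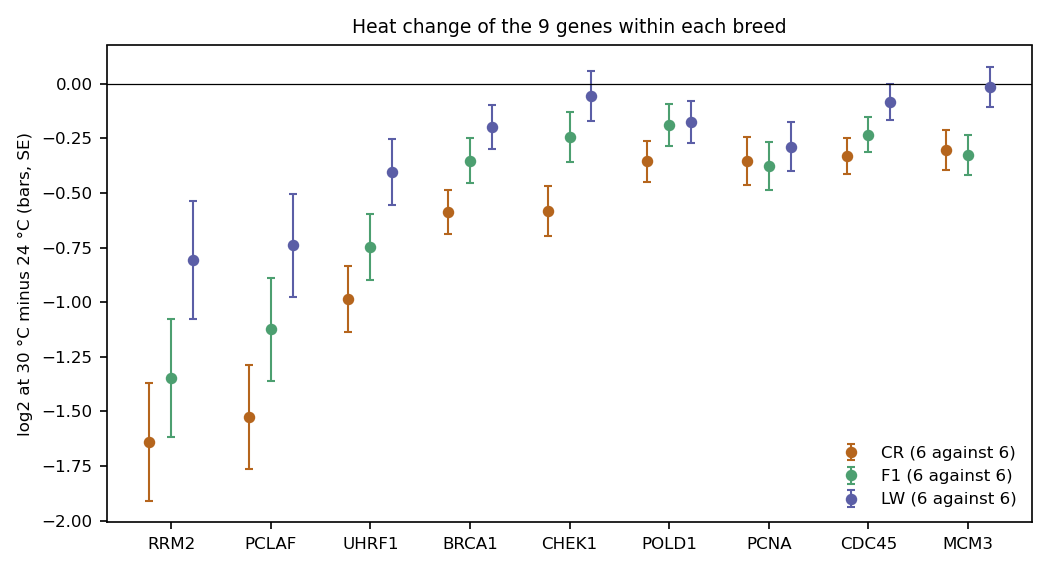
Heat change of the 9 genes within CR (brown), F1 (green) and LW (blue). The y axis is log2 at 30 °C minus 24 °C with SE bars, 6 pigs against 6. RRM2 stands at -1.64, -1.35 and -0.81 in the 3 breeds, and the LW point is the one nearest 0 for every gene.

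The third comparison set the breeds side by side over both temperatures. Between LW and CR 4 of the 30 genes were called, 13.3%, close to the 12.9% of all probes. CDC45 was at 10.22 ± 0.16 (SD, n = 12) in LW and at 10.56 ± 0.20 (n = 12) in CR, a difference of -0.33 (limma adjusted p 0.000216). RFC3 differed by -0.51 (adjusted p 7.85e-05) and DUT by -0.20 (adjusted p 0.0262), both lower in LW. GINS2 was higher in LW, by 0.23 (adjusted p 0.0285). PCLAF and UHRF1 just missed, at -0.50 (adjusted p 0.0554) and -0.32 (adjusted p 0.0595). Without both pigs that lie between the breeds 6 members were called.

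Markers of other cells also differed between LW and CR. Of the 6 adipocyte markers 4 were lower in LW (median -0.57), with ADIPOQ, an adipocyte hormone, at -1.21, and LYZ was the 1 of 9 myeloid markers called, at -0.88. Of the 7 endothelial markers 3 were higher. Of the 7 skeletal muscle markers only ACTA1 was called, as higher, while 6 of the 7 changes were below 0 (median -0.12). Of all probes 12.9% were called between LW and CR. The mean log2 level of the adipocyte list ran from 10.44 to 11.41 at 24 °C and from 10.05 to 11.07 at 30 °C in CR, and from 10.05 to 10.74 and 9.71 to 10.49 in LW. Between F1 and CR none of the adipocyte markers was called in limma (0 at an unadjusted p under 0.05). The part of these cells in the breed differences of the members was not tested.

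RFC3 and CDC45 were also the only members called lower in F1 than in CR, at -0.37 (adjusted p 0.00954) and -0.27 (adjusted p 0.00855). These 2 are 6.67% of the members, where 3.38% of all probes were called. Between F1 and LW limma called none of the 30, against 2% of all probes, and 1 member, GINS2, had an unadjusted p under 0.05. LW and F1 were each compared with the same CR pigs.

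The breed difference of RFC3 rests on 1 probe. In CR the brighter probe ran from 11.30 over 11.38 to 11.65 at 24 °C and from 11.30 over 11.41 to 11.90 at 30 °C. In LW it ran from 10.50 over 11.08 to 11.25 and from 10.79 over 10.91 to 11.22, so that all LW pigs lay below all CR pigs. The second RFC3 probe shares no stretch of sequence with it and differed by only -0.09 between LW and CR (adjusted p 0.793). With the mean of both probes, RFC3 was called in neither comparison.

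CDC45 also depended on the probe when breeds were compared. The 3 overlapping probes were lower in LW, by -0.33, -0.34 and -0.30, each past the threshold. The 2 printed probes differed by -0.12 (adjusted p 0.160) and 0.00 (adjusted p 0.992), the latter from the probe near the floor of the scale. PRIM1 had the opposite case, as its dimmer probe was called at 0.20 (adjusted p 0.0469) and its brighter one was at 0.02.

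**Figure D5:**
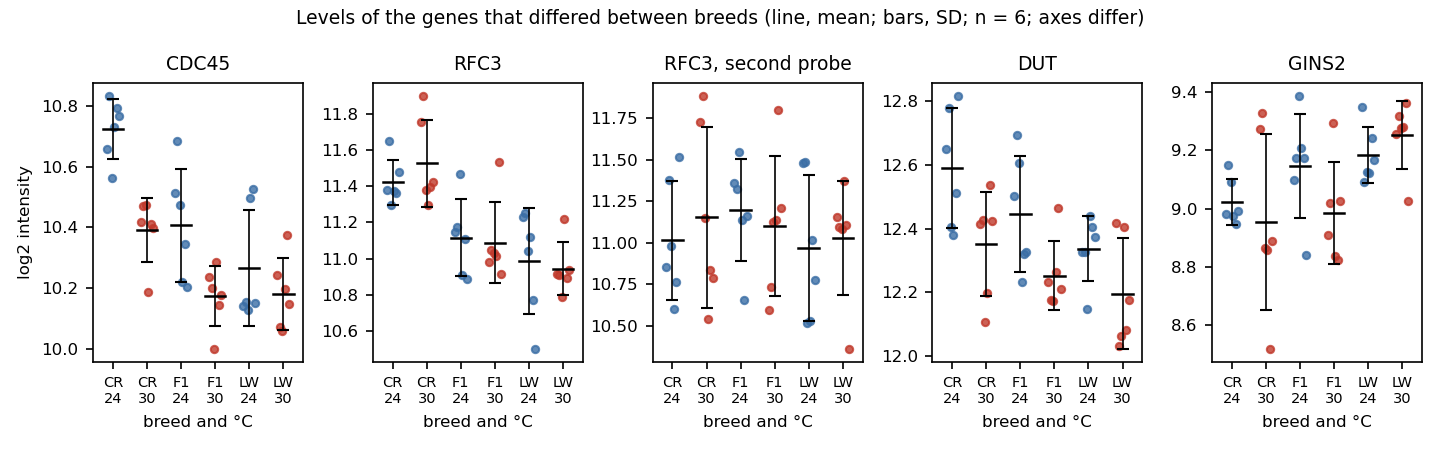
Log2 intensity, one dot per pig, of the 4 genes that differed between LW and CR, with both probes of RFC3 (blue 24 °C, red 30 °C). Lines are means and bars SD of 6 pigs, and the y axes differ. The first RFC3 probe is higher in every CR pig than in any LW pig, and the second probe shows no such order.

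To describe single pigs, the deviation of each gene from its mean over the 36 pigs was averaged over all 30 members. The cool CR pigs had the highest median of the 6 groups and ran from 0.13 over 0.18 to 0.28, and the hot CR pigs ran from -0.22 over -0.06 to 0.06. In F1 the values were -0.04, 0.08 and 0.21 at 24 °C and -0.17, -0.11 and -0.09 at 30 °C, and in LW -0.11, 0.00 and 0.16 against -0.17, -0.08 and -0.04. The temperatures did not overlap in CR or F1, and in LW 1 cool pig, replicate 3, lay among the hot ones. No test was made on this mean, since it contains the 9 called genes. The mean over the 21 members not called overlapped between the temperatures in every breed. In CR it ran from 0.00 over 0.06 to 0.12 at 24 °C and from -0.10 over -0.04 to 0.10 at 30 °C. The F1 values were -0.03, 0.04 and 0.07 against -0.12, -0.03 and 0.01, and the LW values -0.03, -0.01 and 0.05 against -0.07, -0.02 and 0.00.

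The rank of the pigs was shared in part between these genes. The pig with the lowest PCLAF of its group was also the lowest for UHRF1 in 5 of the 6 groups and for RRM2 and PCNA in 4. It was the lowest for CHEK1 in 3, for BRCA1 and MCM3 in 2, and for POLD1 and CDC45 in 1. For TOP2A and CDK1, which act later in the cycle, it was the lowest in 4 groups. The pig with the highest PCLAF was also the highest for UHRF1, RRM2, PCNA, CHEK1 and TOP2A in 2 groups each. It was the highest for BRCA1 and MCM3 in 3, for CDK1 in 4, for CDC45 in 1 and for POLD1 in 0. With 6 pigs to a group, a gene unrelated to PCLAF would match in 1 of the 6 groups on average.

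Genes near the members in the pathway were read from lists beside them. Of 24 other replication genes 2 were called, both lower, namely CLSPN at -0.27 and RECQL4 at -0.19, and the median of the list was -0.01. None of the 13 other genes of nucleotide metabolism was called in limma (median 0.01, 2 with an unadjusted p under 0.05). On the list of other S phase chromatin and repair genes, ASF1B, a histone chaperone, was lower at -0.53 (SE 0.08, adjusted p 3.45e-05 in limma). The 7 genes of the E2F and pocket protein list and the 12 of the G1 cyclins and their brakes had no call, with 1 and 4 at an unadjusted p under 0.05.

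The mitosis list was different in size and count. Of its 21 measured genes 16 were lower, with a median of -0.73, among them CDK1 at -1.44, TOP2A at -1.39, KIF23 at -1.33 and UBE2C at -1.32. RRM2 and PCLAF had changes of this size, UHRF1 one close to the median, and the other 6 called members changes of -0.22 to -0.38. The pairs of changes were not tested against each other.

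Fewer dividing cells and less of these transcripts per dividing cell cannot be told apart in RNA of a whole gland. Markers of other cells were read beside the result. None of the 8 follicular, 6 C cell, 10 thymocyte, 9 myeloid, 6 fibroblast or 6 adipocyte markers was called for heat in limma, with 0, 0, 0, 3, 2 and 3 at an unadjusted p under 0.05. The medians were 0.06, 0.00, -0.01, -0.18, -0.28 and -0.32, and all 9 myeloid and all 6 adipocyte markers were below 0. Of the 7 erythroid markers HBB was lower, at -1.0 (adjusted p 0.00145). On that list 6 of the 7 changes were below 0 (median -0.13), and 3 had an unadjusted p under 0.05. None of the 7 endothelial or 7 skeletal muscle markers was called in limma, with 2 and 0 at an unadjusted p under 0.05. Their medians were 0.06 and -0.07, with 3 and 7 changes below 0.

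The mean log2 level of the thymocyte list ran from 6.87 to 7.44 at 24 °C and from 6.94 to 7.55 at 30 °C, with DNTT, made by immature lymphocytes, well above background on 18 arrays. That of the myeloid list ran from 7.67 to 8.44 and from 7.46 to 8.05, and that of the erythroid list from 8.07 to 8.63 and from 7.78 to 8.25. The part of any of these cells in the changes of the replication genes was not tested.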

How the data were processed

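Per the file headers, the scanner files hold the intensity of each spot from Agilent Feature Extraction 10.10.1.1, as median, mean, background and processed signals. The authors quantile-normalized the median intensity without background subtraction and deposited log2 values of 46097 probes. These deposited log2 values were used throughout, and the size of a change in a dim probe depended on how background was handled. UHRF1 changed by -0.71 in the deposited values, by -0.46 after normexp and by -1.28 on the processed signal. The deposited values differed by a median of 0.00557 from values remade from the scanner files.

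Each gene was represented by its probe with the highest mean. limma 3.58.1 in R 4.3.3 was fitted to all probes with breed and temperature (group means for changes within breeds and the interaction), with Benjamini-Hochberg adjustment over all probes and a threshold of 0.05. The study's random terms for pen, slaughter, sire and dam are not in the labels, so p-values treat pigs as independent. The fit was tested on simulated data. The number of arrays limits the precision. All members are named, and the called ones by value per group. The members and lists were chosen with earlier results of these data known. The promoters planned for a motif search were not used here. Probe positions in the genome are not given in the sources used here. Whether each probe lies on the strand of its transcript was not checked. A member without a call may therefore rest on a probe that does not report its mRNA. The 9 probes outside the rule were chosen after the files were seen. An item of the lists beside the members is not reported here.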

Additional observations from a re-analysis of the deposited data

Results flagged for a closer look

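In each group of 6 pigs, the 9 genes called for heat and the others called between breeds, 72 groups of values in all, were searched for a single pig far from the rest, by Dixon's ratio of gap to range. Such a pig was found in 6 groups, where chance gives about 1 in 20, or 3.6. Replicate 4 of CR at 30 °C was lowest for CDC45, at 10.2 against a mean of 10.4 in the other 5 pigs (ratio 0.734). Replicate 4 of F1 at 30 °C was lowest for PCNA, at 7.39 against 8.03 (ratio 0.690). Replicate 5 of F1 at 30 °C was highest for DUT, at 12.5 against 12.2 (ratio 0.689), and for RFC3, at 11.5 against 11 (ratio 0.782). Replicate 6 of LW at 30 °C was lowest for GINS2, at 9.03 against 9.30 (ratio 0.690), and replicate 4 of LW at 30 °C highest for RFC3, at 11.2 against 10.9 (ratio 0.664). No difference between breeds in the heat change of a member passed its test.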

How the results depend on the processing

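Every heat change of the 9 called genes and every called breed difference kept its direction in the 152 refits that gave one (values remade from the scanner files, processed signal, normexp, well above background on all arrays, slide as a fixed or random block, position on the slide, no breed term, group means, mean of probes, and both pigs between the breeds left out, the last chosen after seeing the data). RRM2, PCLAF, UHRF1, BRCA1 and PCNA stayed past the threshold in each. CDC45 did not without a breed term (adjusted p 0.158), nor MCM3 (0.0567), and CHEK1, POLD1 and MCM3 did not with position on the slide (0.0815, 0.0532 and 0.10). CHEK1 also missed it without both pigs (0.0544), and the GINS2 difference with position (0.0599). DUT passed with slide as a random block (0.0412) and after normexp (0.0460).

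The count of members called for heat was 6 to 10 under these settings. The count within CR was 8 with the processed signal. Within F1 it was 1 with the processed signal, 5 with slide as a fixed block and 0 with position. For F1 against CR it was 1 with the mean of probes. The cause was not tested. Leaving out 1 pig at a time gave 7 to 10 members for heat, 5 to 6 within CR, 0 to 4 within F1, 3 to 6 for LW against CR and 2 to 3 for F1 against CR, and 0 elsewhere. DUT lost its LW difference without replicates 2 or 6 of CR or 3 of LW at 24 °C, and GINS2 without replicate 5 of CR at 30 °C. Within slides 1 to 4, chosen after seeing the data, RRM2 changed by -1.42 to -0.91, PCLAF by -1.21 to -0.92, UHRF1 by -0.94 to -0.51, BRCA1 by -0.43 to -0.35 and PCNA by -0.58 to -0.24. The smaller changes came near 0 in some slides, with CHEK1 from -0.48 to -0.13, POLD1 from -0.39 to -0.12, CDC45 from -0.31 to -0.05 and MCM3 from -0.32 to -0.05. No paired analysis was possible because the labels do not say which pigs were littermates.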
